A study of Homo sapiens and Mus musculus with 27 samples.

Results

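The 51 nuclear genes described here encode the subunits of the first and the last enzyme of oxidative phosphorylation: 36 genes of respiratory complex I and 15 genes of ATP synthase. They were listed by name as established subunits of the complexes, by a rule that uses no measured value but was set with earlier results of these data known, out of 78932 features in each human count table and 25239 in the mouse table. All 51 were found in the human tables and all 51 passed the filter on low counts in both human cell lines. Of the mouse orthologs 50 were found under their orthologous symbols (Ndufb1 was not found), and 49 passed the filter, since Ndufs5 was listed at 0 in every tumour. RNA sequencing covered 27 libraries in 9 groups of 3, spread over 3 datasets. The groups of HCC1937, an established line from a human breast carcinoma, were vehicle, TM (10 µM) and AMD3100 (10 µM). Those of MDA-MB-231, also an established human breast carcinoma line, were vehicle and bortezomib (10 nM) combined either with TM (10 µM) or with AMD3100 (10 µM). 4T1, a mouse mammary carcinoma line, was grown as tumours in Balb/c mice given vehicle, 1 mg/kg bortezomib every 4 days with TM at 0.05 mg/ml in the drinking water, or the same bortezomib with AMD3100 at 5 mg/kg every 2 days. Bortezomib is a proteasome inhibitor, and AMD3100, or plerixafor, is an antagonist of CXCR4. The labels give TM by these letters alone. No group received bortezomib on its own, so the parts of bortezomib and of its partner in MDA-MB-231 and 4T1 cannot be told apart. The tumour called vehicle replicate 1 carries human and MDA-MB-231 entries in some of its labels, and was taken as 4T1 from its title and its column in the mouse table.

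Complex I takes electrons from NADH at the tip of its matrix arm (the N module), passes them to ubiquinone at the base of that arm (the Q module), and pumps protons through a membrane arm that has a proximal and a distal part. ATP synthase lets the protons flow back through a ring of c subunits in the membrane. The ring turns a central stalk inside the F1 head, where alpha and beta subunits alternate and beta carries the catalytic sites, while a peripheral stalk holds the head still. Both enzymes also contain subunits made from mitochondrial DNA. The c subunit is encoded by 3 nuclear genes, ATP5MC1, ATP5MC2 and ATP5MC3, whose products differ in the targeting peptide and give the same mature protein.

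Total counts were 35981504 to 43973262 per library in HCC1937, 40389469 to 50283398 in MDA-MB-231 and 38407536 to 50735374 in 4T1. Library AMD3100 replicate 1 of HCC1937 stood apart: mitochondrially encoded genes took 19.9% of its counts against 10.5% to 11.6% in the other 8, and it had a count for 20639 genes against 29335 to 31770. Results for HCC1937 are therefore given with and without it. In the libraries labelled HCC1937 the epithelial keratins KRT8 and KRT18 were high, with 1885, 1776 and 1866 CPM (counts scaled to the same library size) for KRT8 in vehicle, whereas CDH1, EPCAM and KRT19, which also define epithelial cells, lay between 0 and 1.92 CPM in all 9 libraries. In MDA-MB-231 the mesenchymal gene VIM was at 950.4, 915 and 964 CPM in vehicle and CDH1 at 0 to 0.159 CPM in all 9. The epithelial markers there, CDH1 with EPCAM, KRT8, KRT18 and KRT19, summed to 516 to 676 CPM in vehicle, so CDH1 does not stand for the others. The 4T1 tumours held epithelial, fibroblast, endothelial and immune markers together. They are bulk tissue, where fewer cells of a type and less RNA per cell cannot be told apart. The titles number the replicates as biological but do not say whether these were separate cultures or animals, so p-values measure the spread between these libraries.

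The genes differed widely in level within each complex. Per length, in RPKM (CPM divided by exon length in kilobases), ATP5F1B, the beta subunit, was the highest of the 15 ATP synthase genes in both human lines. It stood at 845, 841 and 849 RPKM in the 3 HCC1937 vehicle libraries and 659, 690.4 and 603 in those of MDA-MB-231. ATP5F1A, the alpha subunit, which the enzyme holds in equal number with beta, stood at 57.1, 57.96 and 56.5 and 52.3, 54.9 and 53.7 RPKM. NDUFS5, an accessory subunit of the membrane arm, was the highest complex I gene in both lines, at 675, 634 and 651 RPKM in HCC1937 and 218, 219 and 199 in MDA-MB-231. Because exon length here counts every annotated exon, genes with long, rarely used exons can be placed too low on this scale. The mouse table gives no lengths, so no such order was made for 4T1.

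A few members were nearly uncounted in the human tables. NDUFV2, a core subunit of the N module, had 10 to 23 counts per vehicle or TM library in HCC1937 and 11 to 43 counts in MDA-MB-231, and NDUFA7 had 3 to 59 counts over the 18 human libraries. NDUFA13, a membrane arm subunit, stayed between 1.44 and 5.05 CPM. In the 4T1 tumours the orthologs were ordinary members: Ndufv2 was at 91.8, 102 and 77.8 CPM, Ndufa7 at 82.8, 95.4 and 90.98 CPM and Ndufa13 at 49.6, 53.1 and 58.8 CPM in vehicle. In GENCODE release 29 on GRCh38, 28.4% of the exonic bases of NDUFV2 (chr18:9102630-9134345, plus strand) also lie in exons of another gene, as do 33.5% for NDUFA7 (chr19:8308768-8321396, minus strand) and 20.97% for NDUFA13 (chr19:19515736-19529054, plus strand). The share was 61.6% for ATP5ME (chr4:672436-674338, minus strand, shared with MYL5), 49.1% for NDUFS7, 48.5% for NDUFB8, 44.9% for NDUFB11 (shared with RBM10), 44.5% for NDUFA1 (shared with RNF113A), 25.5% for ATP5PO and 21.04% for NDUFB9, and 22.4% to 35.9% for NDUFS3, ATP5PF, ATP5F1E and NDUFB2. Whether counting used strand is not given in the sources used here, so the levels and changes of these 14 genes are uncertain.

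In MDA-MB-231, bortezomib with TM was accompanied by higher RNA for most complex I genes under the scaling of the main test, and by a split within ATP synthase. Of 36 complex I genes, 24 rose and 1 fell against vehicle at an adjusted p under 0.05 (edgeR quasi-likelihood test, Benjamini-Hochberg adjustment over all genes). Among all 16498 genes tested 24.1% rose and 27.6% fell, while 66.7% of complex I genes rose and 2.78% fell. Over complex I the log2 fold changes ran from -0.51 to 1.47, with a median of 0.49, against -0.09 over all genes. Of the 15 ATP synthase genes 5 rose (33.3%) and 2 fell (13.3%), with changes from -0.42 to 0.82 and a median of 0.15. The level of complex I, taken as the mean log2 CPM over its genes, was 4.96, 4.95 and 4.90 in vehicle and 5.42, 5.43 and 5.22 with bortezomib and TM, so the groups did not overlap. For ATP synthase the same measure was 6.51, 6.47 and 6.53 in vehicle and 6.64, 6.67 and 6.62 with treatment, a smaller step that also left no overlap.

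The direction of these counts depends on how libraries are scaled. TMM scaling factors were 1.14 to 1.25 in the vehicle libraries and 0.874 to 0.945 in the 6 treated ones, and the 20 most abundant genes took 9.53% to 9.77% of counts in vehicle, 12.9% to 13.3% with bortezomib and TM, and 12.1% to 12.5% with bortezomib and AMD3100. Mitochondrially encoded genes took 3.94% to 4.06% of counts in vehicle and 2.67% to 3.25% in the 6 treated libraries, and 25020 to 25423 genes had a count in vehicle against 22595 to 23228. The mesenchymal markers summed to 983 to 1025 CPM in vehicle, 922 to 942 with bortezomib and TM, and 987 to 1044 with bortezomib and AMD3100. The epithelial markers summed to 516 to 676, 573 to 797 and 611 to 691 CPM in these groups, with overlap. The part of these in the counts of called genes was not tested. As a share of raw counts complex I did not rise: it was 0.222% to 0.231% in vehicle, 0.209% to 0.229% with bortezomib and TM, and 0.200% to 0.204% with bortezomib and AMD3100. When libraries were scaled by their totals alone, the median of all genes shifted to -0.51 for bortezomib and TM, and 6 complex I genes rose and 7 fell, with 13.3% of all genes rising and 43.3% falling. Relative to the median of all genes, a difference that library scaling leaves nearly fixed by construction, the complex I median was 0.58 higher and the ATP synthase median 0.24 higher. Changes below are given under TMM scaling and are relative to the bulk of the genes. Of the 24 complex I genes that rose, 6 also rose under library totals: NDUFA1, NDUFA6, NDUFA11, NDUFB9, NDUFB11 and NDUFV2. Another 5 of the 24 had the opposite sign there (NDUFA3, NDUFB7, NDUFS1, NDUFS5 and NDUFS7). NDUFV3 fell under both.

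**Figure D1:**
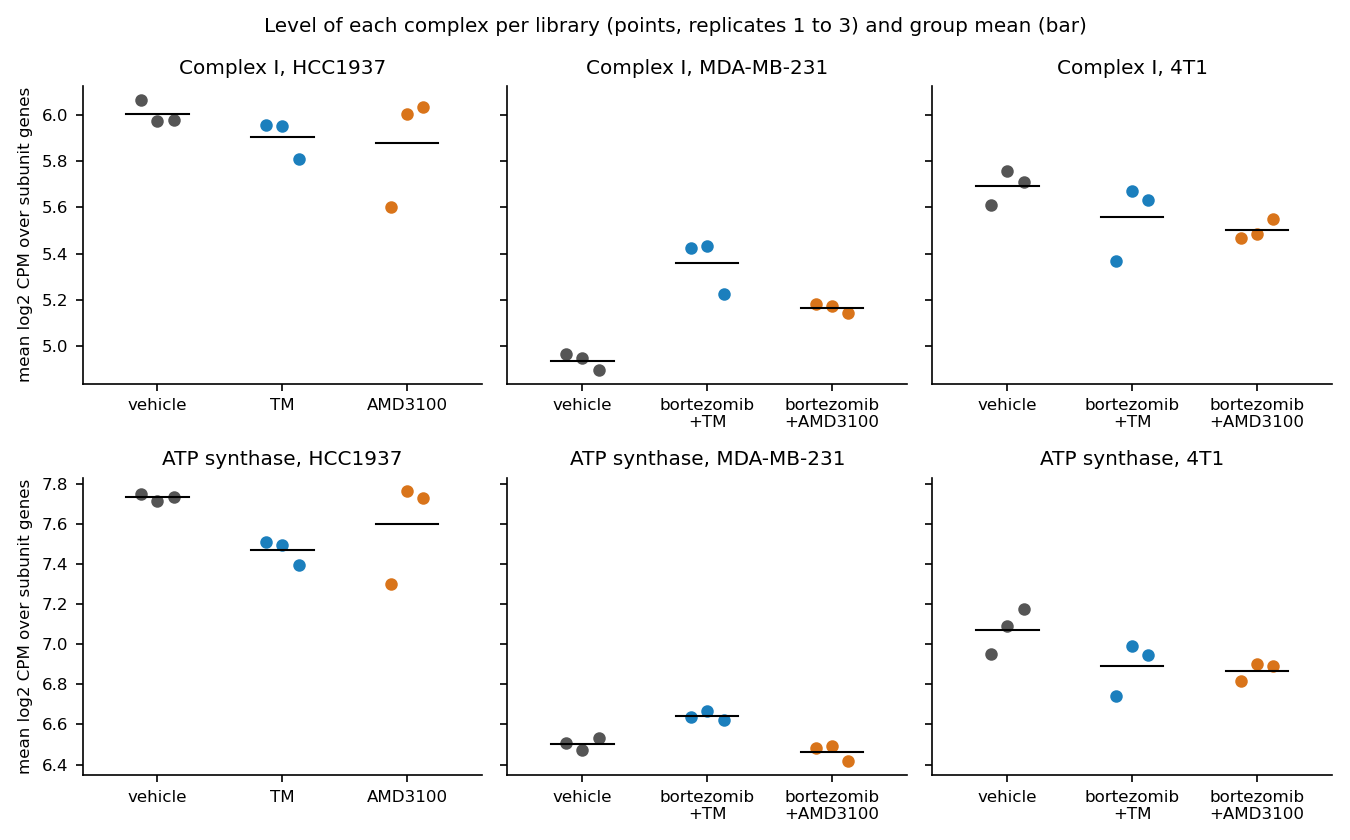
Mean log2 CPM over the tested subunit genes of complex I (top row) and ATP synthase (bottom row) on the vertical axis, for the 3 groups of each dataset; points are libraries and the bar is the group mean. In MDA-MB-231 the complex I level of both treated groups lies above vehicle under TMM scaling (by library totals the median complex I change is 0.07 with TM and -0.12 with AMD3100), in HCC1937 one AMD3100 library lies at 5.601 while the other 2 lie at 6.01 and 6.03, and the datasets were scaled separately, so levels are compared only within a panel.

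Under TMM scaling, genes of all parts of complex I rose with bortezomib and TM: 8 of 9 in the proximal and 8 of 12 in the distal membrane arm, 5 of 10 in the N module and 3 of 5 in the Q module. With library totals these were 2, 2, 2 and 0, while 0, 3, 3 and 1 fell. The difference between modules was not tested. NDUFB11, a distal arm subunit, was at 58.6, 68.001 and 56.3 CPM in the 3 vehicle libraries and 131, 139 and 119.7 CPM with treatment, a log2 fold change of 1.09 ± 0.11 (SE, from 3 libraries a group; edgeR adjusted p = 6.17e-06). Every treated library was above every vehicle library. NDUFB9, next to the end of the same arm, went from 27.7, 29.4 and 23.4 to 57.8, 60.1 and 47.1 CPM, by 1.03 ± 0.13 (adjusted p = 5.31e-05, edgeR). NDUFA6, which sits where the matrix arm meets the quinone site, was at 60.5, 58.5 and 56.2 CPM in vehicle and 103, 110.1 and 102 CPM after treatment, with a log2 fold change of 0.85 ± 0.09 (edgeR adjusted p = 1.46e-05). For NDUFA1, a small membrane subunit needed for assembly and encoded on the X chromosome, the 3 vehicle values of 40.1, 39.7 and 36.9 CPM compared with 58.7, 68.8 and 60.2 CPM, a change of 0.68 ± 0.11 (adjusted p = 0.000285, edgeR). In these 4 genes no treated library reached down to the vehicle range, and all 4 also rose under library totals. NDUFB11, NDUFB9 and NDUFA1 are among the genes with shared exonic bases listed above.

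At the catalytic tip genes moved in both directions. NDUFV1, the flavoprotein that binds NADH, was at 154, 188 and 144 CPM in vehicle and 149, 145 and 118 CPM with bortezomib and TM. Its log2 fold change of -0.24 ± 0.12 did not pass the test (edgeR adjusted p = 0.13), and the groups overlapped. NDUFV3, its small accessory partner, fell from 44.7, 48.1 and 46.1 to 35.8, 33.1 and 28.7 CPM, by 0.51 ± 0.12 on the log2 scale (adjusted p = 0.00356, edgeR), with no overlap. NDUFS1, the large iron-sulphur subunit, passed narrowly at 0.35 ± 0.13 (edgeR adjusted p = 0.0373) although its groups overlapped, with 111, 77.4 and 96.3 CPM in vehicle and 109, 129 and 126 CPM after treatment. That call was lost without either of vehicle replicates 2 and 3 or treated replicates 2 and 3. NDUFV2, the third protein of the tip, had the largest fitted change of all members, 1.47 ± 0.37, but on 11 to 25 counts in vehicle and 39 to 43 with treatment. NDUFA13 rose by 0.79 ± 0.26 (adjusted p = 0.0219, edgeR) from 1.77, 2.598 and 2.604 to 3.55, 5.05 and 3.46 CPM, and lost the call without vehicle replicate 1 or treated replicate 2. The 11 complex I genes that did not pass in either direction were NDUFA7, NDUFA9, NDUFB1, NDUFB5, NDUFB6, NDUFB10, NDUFC1, NDUFS4, NDUFS6, NDUFS8 and NDUFV1. Of these, NDUFA9, NDUFB1, NDUFB6, NDUFB10, NDUFS6 and NDUFV1 fell under library totals, where 43.3% of all genes fell. NDUFV1 was then at -0.66 (edgeR adjusted p = 0.000205).

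Within the F1 head of ATP synthase the alpha and beta genes moved apart. ATP5F1B (chr12:56638175-56646068, minus strand, GRCh38) was at 1474, 1545 and 1349 CPM in vehicle and 2639.5, 2585 and 2071 CPM with bortezomib and TM, a log2 fold change of 0.74 ± 0.11 (edgeR adjusted p = 0.000144). ATP5F1A (chr18:46080248-46104334, minus strand) was at 571, 599 and 586 CPM in vehicle and 486, 522 and 517 CPM with treatment, a change of -0.20 ± 0.08 (adjusted p = 0.0498, edgeR) that was no longer called without any 1 of the 6 libraries compared, by DESeq2, or under median-of-ratios scaling. The ratio of their counts within a library needs no scaling. It was 2.58, 2.58 and 2.30 in vehicle, 5.43, 4.95 and 4.01 with bortezomib and TM, and 4.23, 4.06 and 4.66 with bortezomib and AMD3100. Both treated groups lay above vehicle, while 3 libraries against 3 cannot give a two-sided permutation p below 0.1. The c-subunit genes also shifted against each other. ATP5MC3 took 44.3% to 46.4% of the counts of the 3 c-subunit genes in vehicle and 55.1% to 58.9% with bortezomib and TM, and ATP5MC1 went from 21.6% to 23.2% in vehicle to 15.8% to 15.98%.

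**Figure D2:**
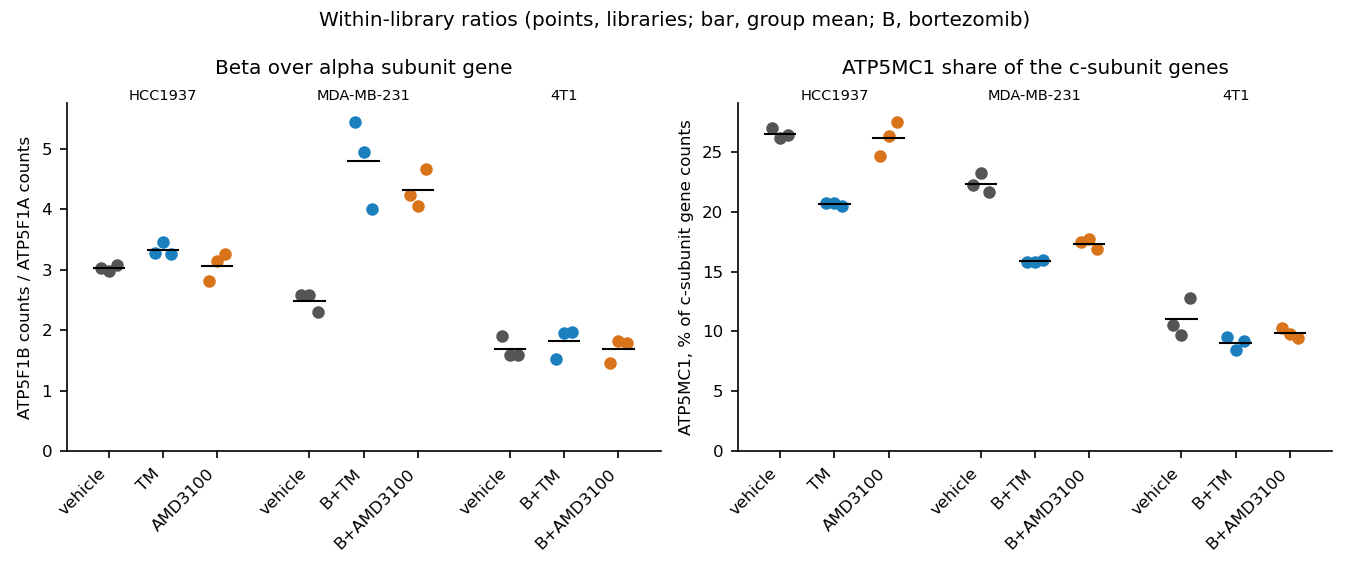
Left, counts of ATP5F1B divided by counts of ATP5F1A in each library; right, counts of ATP5MC1 as a percentage of the counts of ATP5MC1, ATP5MC2 and ATP5MC3 together; points are libraries, bars group means, and B stands for bortezomib. In MDA-MB-231 the beta over alpha ratio is 4.01 or more in all 6 treated libraries and 2.58 or less in vehicle, and the ATP5MC1 share is lower in both treated groups, as it is with TM in HCC1937.

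By gene, ATP5MC3 rose from 249, 273 and 238 to 379, 369.9 and 313 CPM, by 0.48 ± 0.10 on the log2 scale (adjusted p = 0.00221, edgeR). ATP5MC1 fell from 125, 138 and 111 to 106, 106 and 84.99 CPM, a change of -0.33 ± 0.12 (edgeR adjusted p = 0.032), and was not called by DESeq2, under median-of-ratios scaling, or without vehicle replicate 1 or 2 or treated replicate 3. ATP5MC2 overlapped between the groups, at 189, 185 and 165 CPM in vehicle and 189, 195 and 134 CPM with treatment, and its change of -0.05 ± 0.14 turned positive (0.03) under median-of-ratios scaling and in DESeq2. Per length the ATP5MC3 share of the 3 genes was higher as well, going from 40.0% to 42.0% in vehicle to 51.3% to 54.7%. Of the genes for the membrane part, ATP5MG, the g subunit, which helps pair the enzyme into dimers, rose from 21.4, 22.8 and 23.99 to 37.5, 42.96 and 39.6 CPM, by 0.82 ± 0.12 (adjusted p = 0.000127, edgeR), and the groups were far apart. ATP5MF, the f subunit, rose by 0.34 ± 0.12 (edgeR adjusted p = 0.0304), from 74.5, 78.5 and 65.98 to 93.9, 102 and 81.9 CPM, a call lost without vehicle replicate 1 or 3 or treated replicate 1 or 2, with the sign negative (-0.08) under library totals. ATP5ME, the e subunit, was at only 3.21, 3.02 and 4.84 CPM in vehicle and 2.51, 2.44 and 3.32 CPM with treatment, with overlap and no call (adjusted p = 0.183, edgeR). In the peripheral stalk ATP5PB passed at 0.46 ± 0.18 (edgeR adjusted p = 0.0471), named here after its values were seen, and ATP5PD, ATP5PF and ATP5PO did not. ATP5F1C, ATP5F1D and ATP5F1E of the central stalk did not pass either. Under library totals 2 ATP synthase genes rose, ATP5F1B and ATP5MG, and 6 fell, where 13.3% of all genes rose and 43.3% fell. With median-of-ratios scaling or DESeq2 6 rose and none fell, and the shares over all genes in those fits are not given here.

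With bortezomib and AMD3100 in MDA-MB-231 fewer complex I genes rose: 11 of 36 (30.6%), with 2 falling (5.56%), where 22.3% of all genes rose and 24.2% fell. Complex I changes ran from -0.50 to 1.02, the median over complex I was 0.24 and over all genes -0.05, and under library totals the counts were 3 up and 8 down, with 12.8% and 38.2% of all genes. NDUFB11 led again, at 116, 111 and 123 CPM, 0.94 ± 0.11 above vehicle on the log2 scale (edgeR adjusted p = 2.47e-05). NDUFA6 stood at 89.7, 93.9 and 84.4 CPM (0.61 ± 0.09, adjusted p = 0.000212, edgeR) and NDUFB9 at 45.5, 41.1 and 45.2 CPM (0.71 ± 0.13, adjusted p = 0.000981). These 3 rose under library totals too, and in each of them every treated library exceeded every vehicle library. NDUFA10, a proximal arm subunit, rose from 84.3, 83.8 and 75.8 to 112, 116 and 130.0 CPM, by 0.55 ± 0.11 (edgeR adjusted p = 0.00116). The others that rose were NDUFA1, NDUFA8, NDUFA11, NDUFA12, NDUFAB1, NDUFS3 and NDUFV2, by 0.31 to 1.02. NDUFV3 fell to 34.8, 31.9 and 31.9 CPM (-0.50 ± 0.12, adjusted p = 0.00482, edgeR). NDUFV1 fell to 129, 118 and 122 CPM, a change of -0.40 ± 0.12 (edgeR adjusted p = 0.0212), and this call was lost in DESeq2, under median-of-ratios scaling, and without vehicle replicate 2 or treated replicate 2 or 3. NDUFS1, at 119, 118 and 111 CPM, and NDUFA13, at 4.01, 2.55 and 3.605 CPM, did not pass (adjusted p = 0.0882 and 0.103, edgeR). NDUFS1 differed from vehicle by 0.29 ± 0.13 and NDUFA13 by 0.54 ± 0.26.

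Of the ATP synthase genes 2 rose (13.3%) and 4 fell (26.7%) with bortezomib and AMD3100, with changes from -0.75 to 0.50 and a median of -0.01. ATP5F1B was at 2018, 1967 and 2178 CPM (0.50 ± 0.11, edgeR adjusted p = 0.00273) and ATP5MG at 33.3, 32.7 and 30.2 CPM (0.50 ± 0.12, adjusted p = 0.00451, edgeR). Neither passed under library totals. ATP5F1A fell to 477, 485 and 467 CPM (-0.30 ± 0.08, edgeR adjusted p = 0.00917), and ATP5MC1 to 93.1, 90.3 and 98.4 CPM (-0.41 ± 0.12, adjusted p = 0.0133), the latter not called without treated replicate 2. Both also fell under library totals. ATP5PO, the stalk subunit that confers sensitivity to oligomycin, fell from 11.6, 12.6 and 13.9 to 10.4, 8.75 and 8.69 CPM (-0.45 ± 0.17, edgeR adjusted p = 0.0456), a call lost under median-of-ratios scaling and without any 1 of vehicle replicates 1 to 3 or treated replicates 2 and 3. ATP5ME fell to 1.92, 2.67 and 1.99 CPM (-0.75 ± 0.25, adjusted p = 0.0297, edgeR), and lost its call without vehicle replicate 3 or treated replicate 1 or 3. ATP5MC2 was at 139, 142 and 163 CPM and ATP5MC3 at 302, 278 and 322 CPM, neither called. ATP5MC3 made up 54.5% to 56.5% of c-subunit counts here and ATP5MC1 16.9% to 17.7%, both outside the vehicle range.

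**Figure D3:**
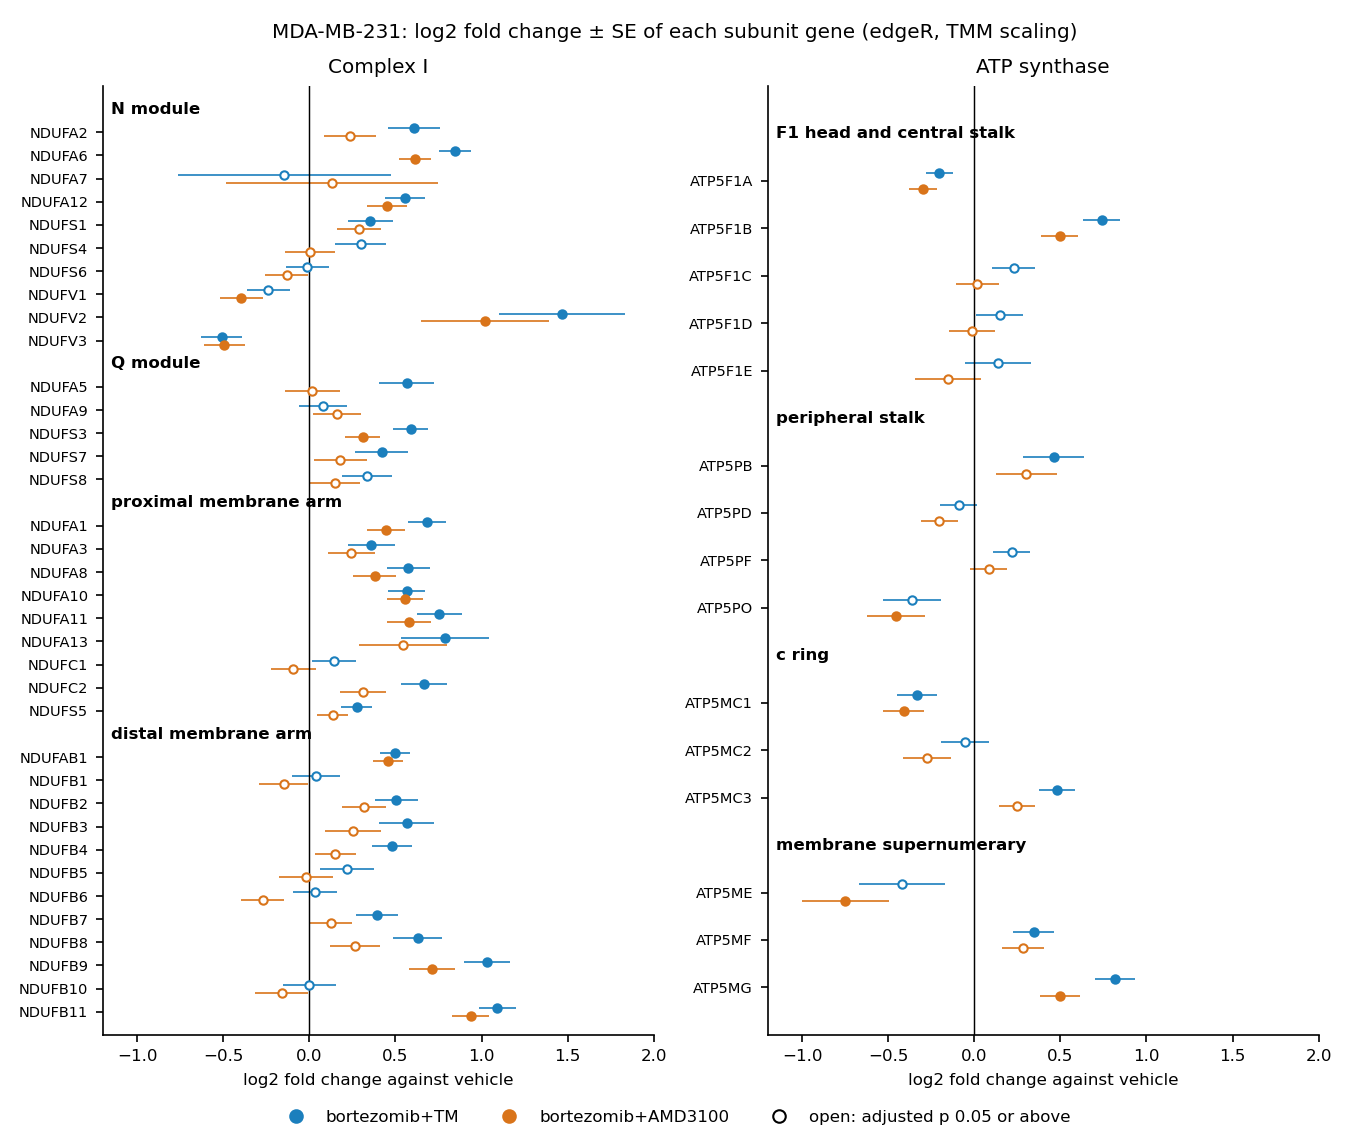
Log2 fold change against vehicle with its SE (horizontal axis) for each of the 51 genes in MDA-MB-231, by module, from edgeR with TMM scaling on 3 libraries a group; filled points passed an adjusted p under 0.05. NDUFB11 and NDUFB9 lie farthest to the right among well-counted genes, NDUFV3 lies to the left in both treatments, and ATP5F1B and ATP5F1A lie on opposite sides of 0.

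Set directly against each other, the 2 bortezomib groups of MDA-MB-231 differed in no member and in no gene (0.0% of 16498) at an adjusted p under 0.05 by edgeR, while DESeq2 called 0 members and 70 genes. At an unadjusted p under 0.05, 11 of 36 complex I genes and 3 of 15 ATP synthase genes were lower with AMD3100 and none higher, where 8.87% of all genes passed in either direction. The log2 differences had a median of -0.22 over complex I and -0.16 over ATP synthase, against 0.01 over all genes, and were negative for 33 of 36 and 15 of 15. NDUFA5 had one of the smallest p-values, at 23.8, 20.8 and 20.9 CPM with TM and 17.001, 14.9 and 12.8 CPM with AMD3100 (-0.55 ± 0.16, edgeR adjusted p = 0.425), and these libraries did not overlap. NDUFB4 was at 119, 121 and 99.6 CPM with TM and 84.9, 89.3 and 95.6 CPM with AMD3100 (-0.33 ± 0.12, adjusted p = 0.486, edgeR). Among the most abundant members, NDUFS8 was at 233, 234 and 159 CPM with TM and 169, 175 and 206 CPM with AMD3100 and NDUFS3 at 182, 191 and 152 CPM with TM and 141, 146 and 146 CPM with AMD3100. The NDUFS8 values overlapped, and those of NDUFS3 did not. In ATP synthase the smallest p-values belonged to ATP5MG (-0.32 ± 0.12, edgeR adjusted p = 0.504) and ATP5MC3 (-0.23 ± 0.10, adjusted p = 0.549). The difference between the counts of called genes against vehicle, 24 and 11, comes with no gene that passed the direct comparison.

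In HCC1937 all 15 ATP synthase genes had a negative log2 fold change with TM alone, and in 10 of them every TM library lay below every vehicle library. Over all genes tested 26.4% lay wholly below vehicle in this way and 25.2% wholly above. The changes ran from -0.64 to -0.06, with a median of -0.23 against -0.0037 over all genes, and the ATP synthase level was 7.75, 7.71 and 7.73 in vehicle and 7.51, 7.49 and 7.40 with TM. Only ATP5PO passed the test over all 9 libraries (6.67% of 15), where 4.11% of 19461 genes fell and 2.96% rose. Of complex I, NDUFC1 and NDUFV3 fell (5.56% of 36) and none rose, with changes from -0.75 to 0.78 and a median of -0.08. Without AMD3100 replicate 1, whose spread the 9 libraries share in the fit, 11 ATP synthase genes fell and none rose, and 13 complex I genes fell and 3 rose, in a comparison where 22.4% of all genes fell and 20.3% rose. With vehicle and TM fitted alone the counts were 11 down for ATP synthase, and 12 down and 3 up for complex I. The shares over all genes in that fit are not given here, so these counts cannot be set against them. Markers moved with TM as well: the 5 epithelial ones summed to 2426 to 2526 CPM in vehicle and 1874 to 1920 with TM, and the mesenchymal ones to 381 to 393 and 294 to 303 CPM. Their part in the result was not tested.

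ATP5PO fell from 53.8, 59.1 and 57.1 CPM in vehicle to 34.8, 35.2 and 39.3 CPM with TM, by 0.64 ± 0.09 on the log2 scale (edgeR adjusted p = 0.0057). NDUFV3 fell from 82.2, 77.8 and 75.9 to 49.8, 49.8 and 44.3 CPM (-0.71 ± 0.09, adjusted p = 0.0033, edgeR). Both sets of TM libraries lay wholly below vehicle. NDUFC1, a small membrane subunit, fell from 66.1, 57.7 and 62.9 to 45.02, 49.5 and 41.9 CPM (-0.45 ± 0.10, edgeR adjusted p = 0.0344), a call lost without any 1 of the 6 vehicle and TM libraries. ATP5MC1 showed a fall of similar size, from 310.0, 289 and 305 to 194, 193 and 195 CPM, in closely matched replicates. It did not pass over all 9 libraries (adjusted p = 0.138, edgeR), and without AMD3100 replicate 1 its change was -0.63 with an adjusted p of 5.41e-13 (edgeR). ATP5MC1 accounted for 26.1% to 26.996% of c-subunit counts in vehicle and 20.5% to 20.7% with TM. ATP5MC2 was at 453, 439.6 and 468 CPM in vehicle and 373, 386 and 399 CPM with TM, and ATP5MC3 at 385, 377 and 384 CPM in vehicle and 370.3, 355 and 358 CPM with TM, also without overlap.

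In the F1 head of HCC1937 both main genes ran lower with TM. ATP5F1A was at 623, 632 and 616 CPM in vehicle and 528, 511 and 530.1 CPM with TM (-0.25 ± 0.10), and ATP5F1B at 1890.2, 1881 and 1899.9 CPM in vehicle and 1733, 1766 and 1725 CPM with TM (-0.12 ± 0.07). Neither passed over 9 libraries (edgeR adjusted p = 0.175 and 0.419), and both fell without AMD3100 replicate 1 (adjusted p = 5.94e-07 and 0.00111, edgeR). The beta over alpha count ratio was 3.03, 2.98 and 3.08 in vehicle and 3.28, 3.46 and 3.25 with TM. In the fit without AMD3100 replicate 1, NDUFB5 (-0.75), NDUFA6 (-0.52), NDUFA5 (-0.48), NDUFA10 (-0.45) and NDUFB10 (-0.37) were among the complex I genes that fell. NDUFA13 was at 2.11, 1.44 and 2.32 CPM in vehicle and 3.47, 3.41 and 3.19 CPM with TM. NDUFA8 (0.22), NDUFA13 (0.78) and NDUFAB1 (0.32) were the 3 that rose. NDUFAB1 also serves as the mitochondrial acyl carrier protein. It was at 123, 125 and 129 CPM in vehicle and 159, 162 and 149 CPM with TM. Of the members given whatever their result, NDUFV1 was at 229, 207 and 217 CPM in vehicle and 209.7, 223 and 214 CPM with TM. NDUFS1 was at 81.1, 84.6 and 84.6 CPM in vehicle and 73.9, 72.8 and 75.3 CPM with TM, and NDUFB9 was at 225, 217 and 222 CPM in vehicle and 209.8, 211 and 196 CPM with TM. NDUFV1 overlapped between groups, whereas the TM values of NDUFS1 and NDUFB9 were all lower. ATP5ME, at 18.7, 18.5 and 17.9 CPM in vehicle and 17.97, 16.7 and 11.9 CPM with TM, overlapped at its upper end.

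AMD3100 alone gave no called member against vehicle in HCC1937, and no called gene (0.0% of 19461) by edgeR. At an unadjusted p under 0.05 again 0 members passed, beside 4.89% of all genes, and DESeq2 called 0 members and 39 genes. NDUFA13 and NDUFB3 had the smallest p-values in complex I, with 4.02, 2.21 and 2.53 CPM for NDUFA13 and 24.8, 51.3 and 54.1 CPM for NDUFB3. In ATP synthase these were ATP5PO, with 47.9, 51.1 and 50.4 CPM, and ATP5PF, with 99.6, 141 and 136 CPM. Replicate 1, the first value of each, stood apart in NDUFA13, NDUFB3 and ATP5PF. The same is seen in the most abundant complex I genes, NDUFS6 at 154, 454 and 466 CPM and NDUFS5 at 286, 354 and 368 CPM, while ATP5F1A (753, 616 and 619 CPM) and ATP5F1B (2115, 1934 and 2017 CPM) were highest in that library. NDUFV1 (94.9, 245 and 248 CPM), NDUFB9 (152, 221 and 226 CPM), ATP5MC2 (251, 517 and 473 CPM) and ATP5MC3 (255, 383 and 388 CPM) were lowest there and NDUFS1 (98.1, 80.3 and 76.99 CPM) highest, while ATP5ME was at 12.3, 20.6 and 15.7 CPM. Without it, ATP5F1D (0.22), NDUFA11 (0.28), NDUFB7 (0.17), NDUFS8 (0.19) and NDUFV1 (0.18) rose and NDUFB5 (-0.68) fell, on the log2 scale, with 4.34% of all genes rising and 3.35% falling. The AMD3100 group then has 2 libraries.

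Against TM, AMD3100 libraries of HCC1937 had higher NDUFC1 and NDUFV3 (5.56% of 36 complex I genes) and higher ATP5PO (6.67% of 15), where 4.61% of genes were higher and 3.6% lower. NDUFV3, at 83.2, 77.8 and 76.5 CPM with AMD3100, exceeded every TM library (0.72 ± 0.09, edgeR adjusted p = 0.00337). ATP5PO, at 47.9, 51.1 and 50.4 CPM, differed by 0.45 ± 0.09 (adjusted p = 0.0217, edgeR), and lost its call without any 1 TM library or AMD3100 replicate 2. NDUFC1, at 63.5, 56.8 and 59.5 CPM, differed by 0.40 ± 0.10 (edgeR adjusted p = 0.0497), which also failed without any 1 TM library or AMD3100 replicate 2 or 3. This comparison shares its TM libraries with that of TM against vehicle. Without AMD3100 replicate 1, 14 complex I genes were higher and 2 lower, and 10 ATP synthase genes were higher and none lower, where 19.7% of genes were higher and 18.9% lower. ATP5MC1, at 165, 322 and 326 CPM with AMD3100, was then 0.74 above TM (adjusted p = 2.44e-13, edgeR).

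**Figure D4:**
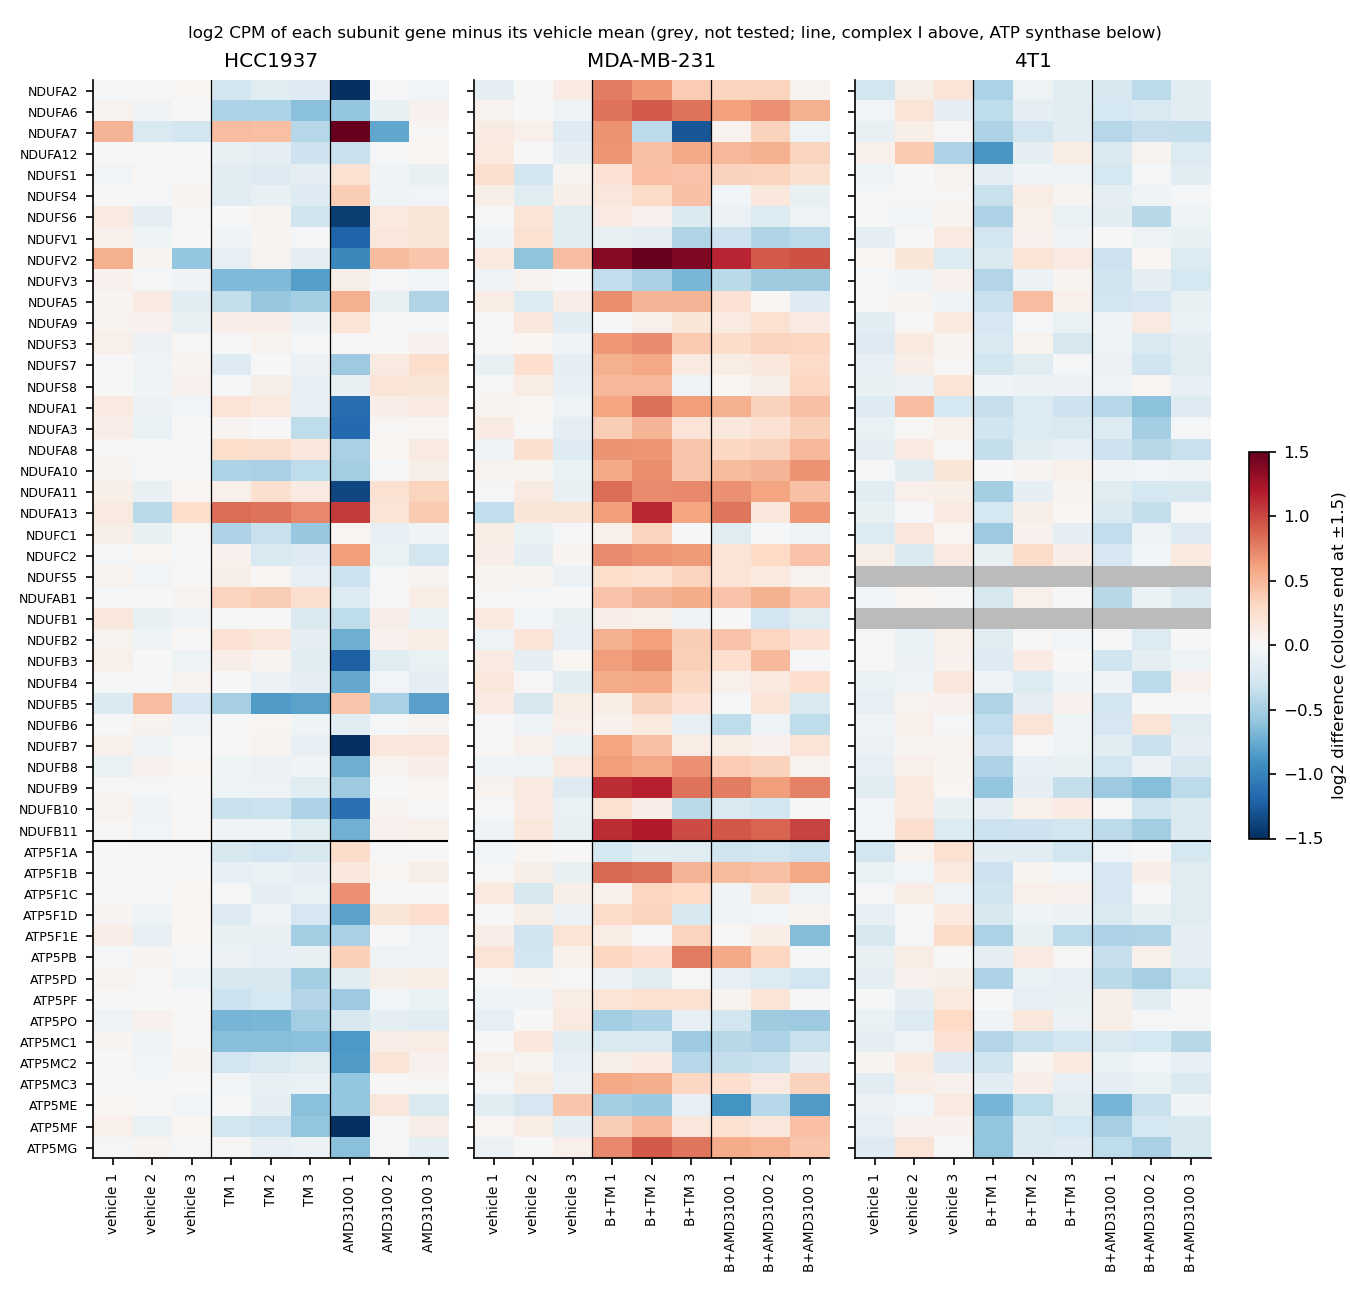
Log2 CPM of each of the 51 genes (rows, complex I above the line and ATP synthase below) minus its mean over the vehicle libraries of the same dataset, in each of the 27 libraries (columns); red is higher, blue lower, colours end at 1.5 in either direction, and grey marks the 2 mouse genes not tested. The AMD3100 replicate 1 column of HCC1937 departs from its 2 neighbours in most rows, NDUFV3, ATP5PO and ATP5MC1 are blue in all 3 TM libraries of that line, and most complex I rows are red in treated MDA-MB-231 under TMM scaling, while by library totals the median complex I change there is 0.07 with TM and -0.12 with AMD3100.

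In the 4T1 tumours no member passed edgeR's test in any of the 3 comparisons, nor did any gene (0.0% of 15846 in each). DESeq2 called 0 members, and 3, 17 and 6 genes for TM against vehicle, AMD3100 against vehicle and AMD3100 against TM. For bortezomib with TM, 3 of 34 complex I genes (8.82%) and 2 of 15 ATP synthase genes (13.3%) were lower at an unadjusted p under 0.05, beside 4.34% of all genes in either direction. For bortezomib with AMD3100 these were 4 of 34 (11.8%) and 4 of 15 (26.7%), beside 7.22% of all genes. All 34 and all 15 log2 fold changes were negative in the latter comparison, with medians of -0.19 and -0.16 against 0.01 over all genes, and for bortezomib with TM 29 of 34 and 13 of 15 were negative, with medians of -0.13. The complex I level was 5.61, 5.76 and 5.71 in vehicle, 5.37, 5.67 and 5.63 with bortezomib and TM, and 5.47, 5.49 and 5.55 with bortezomib and AMD3100. The AMD3100 tumours lay below vehicle, and the TM tumours overlapped with it. For ATP synthase the levels were 6.95, 7.09 and 7.17, then 6.74, 6.99 and 6.94, and 6.81, 6.90 and 6.89, with the AMD3100 tumours again below vehicle.

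By edgeR, Ndufa7 had the smallest p-value of complex I with bortezomib and TM, and Ndufb9 with bortezomib and AMD3100. Ndufb9 was at 196, 244 and 224 CPM in vehicle, 147, 200.3 and 172 CPM with bortezomib and TM, and 151, 142 and 168 CPM with bortezomib and AMD3100. Its log2 fold changes were -0.35 ± 0.14 and -0.53 ± 0.14 (edgeR adjusted p = 0.887 and 0.634). The AMD3100 tumours lay wholly below vehicle, and the TM tumours overlapped with it. Ndufa7 was at 82.8, 95.4 and 90.98 CPM in vehicle, 64.8, 73.99 and 79.6 CPM with TM and 66.4, 70.7 and 70.1 CPM with AMD3100, with both treated groups below vehicle (-0.30 ± 0.11 and -0.38 ± 0.11). In ATP synthase, Atp5mc1 was at 37.6, 39.2 and 48.2 CPM in vehicle, 30.4, 32.9 and 33.97 CPM with TM and 35.4, 34.5 and 31.1 CPM with AMD3100 (-0.36 ± 0.13 and -0.31 ± 0.13), and no treated tumour reached the lowest vehicle tumour. Its share of c-subunit counts was 9.71% to 12.8% in vehicle, 8.46% to 9.54% with bortezomib and TM, and 9.47% to 10.3% with bortezomib and AMD3100. The shares in the TM tumours lay below vehicle and those in the AMD3100 tumours overlapped with it. Atp5mf was at 104, 118 and 118 CPM in vehicle, 75.6, 97.2 and 94.2 CPM with TM and 80.1, 94.4 and 95.4 CPM with AMD3100, and Atp5pd at 82.9, 96.2 and 97.4 CPM in vehicle, 66.7, 85.7 and 84.2 CPM with TM and 69.5, 64.8 and 75.7 CPM with AMD3100. Treated tumours lay below vehicle in both, except that Atp5pd overlapped with TM.

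The abundant head subunits overlapped between the 4T1 groups. Atp5f1b was at 1157, 1206 and 1369 CPM in vehicle, 997, 1272 and 1203 CPM with bortezomib and TM, and 1039, 1329 and 1092 CPM with bortezomib and AMD3100, and Atp5f1a at 607, 761 and 861 CPM in vehicle, 654, 653 and 609.5 CPM with TM and 716, 733 and 613 CPM with AMD3100. The beta over alpha ratio ranged from 1.45 to 1.97 over the 9 tumours, with overlap. Ndufv1 (109.9, 119.7 and 132 CPM in vehicle, 98.6, 126 and 116 CPM with TM and 120.0, 114 and 112 CPM with AMD3100) and Ndufs1 (108, 114 and 118 CPM in vehicle, 103, 109 and 108 CPM with TM and 93.9, 112 and 100.4 CPM with AMD3100) also overlapped between vehicle and each treated group. Ndufa13 was at 49.6, 53.1 and 58.8 CPM in vehicle, 44.6, 57.03 and 54.98 CPM with TM and 46.3, 41.9 and 52.5 CPM with AMD3100. For the other c-subunit genes, Atp5mc2 was at 141, 151 and 120.0, then 111, 141 and 152, then 128, 133 and 125 CPM in these groups, and Atp5mc3 at 178, 214 and 209, then 177, 215 and 184, then 181, 186 and 172 CPM. Atp5me was at 19.9, 20.5 and 23.2, then 13.1, 16.2 and 19.01, then 13.1, 16.9 and 20.4 CPM. In these genes vehicle overlapped with each treated group, except that Atp5me was lower in every bortezomib and TM tumour. Between the treated groups themselves no member passed even unadjusted, beside 2.87% of all genes, and the medians were -0.05 for complex I and -0.03 for ATP synthase. In that comparison Ndufa5 (-0.32), Ndufb10 (-0.20), Atp5pd (-0.17) and Atp5pb (-0.13) had the smallest p-values of their complexes, with an edgeR adjusted p of 0.996 for each.

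Marker sums for several cell types, epithelial ones included, were set beside these groups, and no marker passed at an adjusted p under 0.05 (edgeR). The summed slow muscle markers, low throughout, were 2.01 to 3.25 CPM in vehicle, 1.66 to 1.90 with bortezomib and TM, and 1.27 to 1.55 with bortezomib and AMD3100, while the 6 skeletal muscle markers summed to 13.97 to 16.98, 9.42 to 15.6 and 9.20 to 13.2 CPM, with Ckm and Myh4 at 0 to 0.101 CPM. The 5 epithelial markers summed to 1462 to 2392 CPM in vehicle, 1065 to 1916 with bortezomib and TM, and 969.8 to 1247 with bortezomib and AMD3100, where all 5 had negative log2 fold changes in the last group, 4 of them at an unadjusted p under 0.05. T cell markers summed to 14.8 to 79.3 CPM, 41.0 to 223 and 44.1 to 351, and B cell markers to 1.39 to 81.1, 1.32 to 319 and 3.04 to 466. The NK cell markers, low throughout, summed to 0.556 to 3.08 CPM in vehicle, 1.66 to 6.57 with TM and 3.25 to 4.94 with AMD3100, the last above vehicle. The sums of fibroblast, endothelial, macrophage and neutrophil markers overlapped between vehicle and both treated groups. By gene, all 4 macrophage markers had negative log2 fold changes in both (medians -0.43 with TM and -0.26 with AMD3100), 3 of them at an unadjusted p under 0.05 with TM and 0 with AMD3100. All 4 neutrophil markers were negative as well (medians -0.58 and -0.75), 1 and 2 of them at that p. Brown fat markers lay between 0 and 0.331 CPM. The part of these cell mixtures in the lower subunit RNA was not tested.

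The promoters of the members were searched for short sequence motifs. The RefSeq promoter table (GRCh38.p14, from 250 bases before to 50 after each start) held 43 of the 51 genes, and lacked ATP5F1B, ATP5F1D, ATP5MC3, ATP5MF, NDUFB5, NDUFB9, NDUFC2 and NDUFS5. The core of the site of NRF1, a transcription factor known for driving respiratory chain genes, was searched as GCATGCGC on both strands. It lay in 9 of the 43 windows (20.9%), 5 of complex I and 4 of ATP synthase, and in 3.05% of all 35116 windows. A YY1 core, AAGATGGC, was found in 9 (20.9%, against 2.89%), and an ETS core, CCGGAAGT, in 3 (6.98%, against 4.14%). No match of one motif overlapped a match of another in these windows, while the NRF1 core can match both strands at once, 2 bases apart. Below are 30-base stretches 5′ to 3′ on the gene's strand from 3 genes that rose with bortezomib and TM under TMM scaling (NDUFA6, NDUFB4 and NDUFS7) and 2 that did not (NDUFS6 and ATP5ME), with the NRF1 core in capitals.
NDUFA6: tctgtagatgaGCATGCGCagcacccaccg
NDUFB4: aagagcacttcGCGCATGCgcatatcaccg
NDUFS7: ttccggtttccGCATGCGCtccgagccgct
NDUFS6: ccagaagccgtGCGCATGCgttagcgctaa
ATP5ME: cgccgctgacgGCGCATGCgtgcgcccagc

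These stretches lie at chr22:42090920-42090949 (minus strand), chr3:120596166-120596195 (plus strand), chr19:1383823-1383852 (plus strand), chr5:1801350-1801379 (plus strand) and chr4:674336-674365 (minus strand), all before the start of transcription in RefSeq. Among the 9 genes with the NRF1 core, 4 rose and none fell with bortezomib and TM (NDUFA6, NDUFA8, NDUFB4 and NDUFS7), and 2 rose and 1 fell with bortezomib and AMD3100, beside 24.1% of all genes rising and 27.6% falling, then 22.3% and 24.2%. With library totals only NDUFA6 of the 9 rose, and NDUFS6, ATP5MC2 and ATP5ME fell, in both comparisons. The pattern under TMM scaling was not particular to NRF1. Of the 9 genes with the YY1 core, 4 rose and 0 fell with bortezomib and TM, and 1 rose and 1 fell with bortezomib and AMD3100. Of the 3 with the ETS core, 2 rose and 0 fell with TM, and 0 were called with AMD3100. With 24 of 36 complex I genes rising under TMM scaling, rises were found in genes with and without the NRF1 core. NDUFS6, whose window held it, was at 78.8, 92.03 and 70.1 CPM in vehicle and 86.9, 83.1 and 68.8 CPM with bortezomib and TM. NDUFB11, which rose most among well-counted genes, had none of the 3 motifs in its window. A match is a run of letters and says nothing of binding.

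Genes that build the complexes moved in both directions, as genes did overall: 24.1% of all genes rose and 27.6% fell with bortezomib and TM in MDA-MB-231, and 22.3% and 24.2% with bortezomib and AMD3100. Of 20 complex I assembly factors, 5 rose (25%) and 7 fell (35%) with bortezomib and TM, and 3 rose (15%) and 9 fell (45%) with bortezomib and AMD3100, under TMM scaling. With library totals these were 3 and 12, then 3 and 15, where 13.3% of all genes rose and 43.3% fell, then 12.8% and 38.2%. DMAC2, an assembly factor of the membrane arm, rose by 1.04 ± 0.11 and 0.90 ± 0.11 (edgeR adjusted p = 9.71e-06 and 3.48e-05), and ECSIT by 1.09 ± 0.12 and 0.82 ± 0.12, while DMAC1 fell from 22.4, 21.4 and 20.5 CPM to 8.97, 8.86 and 6.63 CPM with TM and 6.27, 5.57 and 6.97 CPM with AMD3100. Among 8 genes for assembly and control of ATP synthase 3 rose (37.5%) and 2 fell (25%), then 1 rose (12.5%) and 3 fell (37.5%), or 1 and 4, then 0 and 3, with library totals. ATP5IF1, the inhibitor that stops the enzyme from running backwards, fell from 21.1, 21.3 and 19.5 CPM to 12.8, 10.8 and 12.2 CPM with TM and 13.8, 11.8 and 12.7 CPM with AMD3100 (-0.79 ± 0.14 and -0.69 ± 0.14). ATPAF2, a chaperone of the alpha subunit, rose by 0.93 ± 0.18 and 0.74 ± 0.18, the latter not called with library totals (edgeR adjusted p = 0.0702). In HCC1937 with TM, CHCHD4 (-0.62 ± 0.08) and TIMMDC1 (-0.59 ± 0.08) were the 2 of 20 assembly factors that fell (10.0%), with none rising, and ATPSCKMT the 1 of 8 genes of the ATP synthase list (12.5%, -0.71 ± 0.18), beside 4.11% of all genes falling. No gene of these lists passed in 4T1.

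Subunits made from mitochondrial DNA are transcribed apart from the nuclear members. In MDA-MB-231 with bortezomib and TM, MT-ND3 rose (1.12 ± 0.14, edgeR adjusted p = 4.55e-05), MT-ND4, MT-ND5 and MT-ND6 fell (by 0.53 to 0.72), and neither MT-ATP6 nor MT-ATP8 passed under TMM scaling. With bortezomib and AMD3100 only MT-ND3 passed of the 7 complex I genes (0.59 ± 0.14, adjusted p = 0.00466, edgeR). With library totals 1 of the 7 rose and 6 fell, then none rose and 2 fell, and MT-ATP6 fell in both comparisons (-0.40 and -0.29, edgeR adjusted p = 0.00141 and 0.00964). Under that scaling 13.3% of all genes rose and 43.3% fell with TM, then 12.8% and 38.2% with AMD3100. The same shares stand beside the library-total counts of the lists that follow. None of the 9 passed in HCC1937. These genes were not analysed here in 4T1. Of the 12 regulators of mitochondrial biogenesis, 4 rose and 4 fell (33.3% each) with bortezomib and TM, where 24.1% of all genes rose and 27.6% fell, and 3 rose (25%) and 4 fell (33.3%) with bortezomib and AMD3100, where 22.3% rose and 24.2% fell. These counts were 1 and 6, then 1 and 4, with library totals. PPARGC1B, a coactivator of NRF1 and ERR factors, fell from 13.8, 13.8 and 15.5 CPM to 2.03, 2.04 and 1.72 CPM with TM and 1.74, 1.77 and 3.39 CPM with AMD3100 (-2.90 ± 0.26 and -2.64 ± 0.26), and TFB1M, a methyltransferase of the mitochondrial ribosome, fell by 1.59 ± 0.19 and 1.39 ± 0.19. GABPB1, a partner of the ETS factor GABPA, rose by 1.30 ± 0.20 and 1.35 ± 0.20. Complex II, which feeds electrons to ubiquinone from succinate, had 2 of 4 genes rising with bortezomib and TM (SDHB by 0.62 ± 0.10, SDHC by 0.40 ± 0.11) and 1 with bortezomib and AMD3100 (50% and 25%). With library totals none rose, SDHA fell with TM (-0.38), and SDHA (-0.43) and SDHC (-0.23) fell with AMD3100. Nuclear complex III had 4 of 9 rising (44.4%) and 2 falling (22.2%), then 2 and 2 (22.2% each), with UQCRB and UQCRH up and UQCRFS1, its iron-sulphur protein, down (-0.68 ± 0.09 and -0.74 ± 0.09). With library totals 1 of the 9 rose and 4 fell, then none rose and 4 fell.

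Some members moved alike in both human lines, whose comparisons share no library. NDUFV3 fell with TM in HCC1937 and with both bortezomib combinations in MDA-MB-231, by 0.71, 0.51 and 0.50 on the log2 scale. In the 4T1 tumours its ortholog was at 57.7, 56.7 and 61.5 CPM in vehicle, 43.2, 55.3 and 60.1 CPM with bortezomib and TM, and 47.5, 53.3 and 48.7 CPM with bortezomib and AMD3100, with only the last group below vehicle and no call. ATP5MC1 had a lower share of the c-subunit counts in the TM groups of all 3 datasets without overlap with vehicle, by the values given above. The same held with bortezomib and AMD3100 in MDA-MB-231, while the AMD3100 groups of HCC1937 and 4T1 overlapped with vehicle. In MDA-MB-231 and 4T1 TM was given with bortezomib, and how often shares of other genes separate in this way was not examined. Others went opposite ways: NDUFA6 and NDUFA10, higher in treated MDA-MB-231 under TMM scaling, were lower with TM in HCC1937 in the fit without AMD3100 replicate 1. Under library totals NDUFA6 was still called with both partners, and NDUFA10 with neither (0.14 with TM and 0.19 with AMD3100, edgeR adjusted p = 0.17 and 0.0771). Of the human lines, MDA-MB-231 alone was given bortezomib, so bortezomib and the line cannot be told apart here.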

How the data were processed

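RNA sequencing of poly(A) RNA was analysed from 27 libraries in 9 groups of 3. The authors deposited whole-number read counts per gene, on GRCh38 or GRCm38; featureCounts (2.0.1) and MultiQC (1.11) are the tools named, per the submitters' processing notes. The aligner, annotation version and strand setting are not given in the sources used here. The human tables also hold gene length in bases, another value the authors deposited, used for RPKM. Human members were matched by Ensembl identifier, and mouse members by orthologous symbol with older names. Each dataset was fitted with edgeR 4.0.16 (R 4.3.3, limma 3.58.1): filterByExpr, TMM scaling, all 9 libraries, 1 coefficient per group, quasi-likelihood test, Benjamini-Hochberg adjustment over all genes, called at an adjusted p under 0.05. CPM use TMM library sizes, and log2 CPM a prior count of 2. The script was tested on simulated data.

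Genes were named by rule: up to 4 called members of each complex per direction with the smallest p, or, with none called, the 2 with the smallest p and the 2 with the highest CPM, plus NDUFV1, NDUFS1, NDUFA13, NDUFB9, ATP5F1A, ATP5F1B, ATP5ME and the 3 c-subunit genes. In the pathway lists up to 3 called genes were named. Other genes named beside a count were chosen after their values were seen. The members and lists were chosen with earlier results of these data known. Alternatives were median-of-ratios scaling, no low-count filter, DESeq2 1.42.0, the replicate number as a block, the compared groups alone, removal of mitochondrially encoded genes (human tables), and leaving out each library; scaling by library totals was chosen after seeing the data. No pair of libraries was identical. Promoters came from RefSeq (GRCh38.p14), and shared exons from GENCODE release 29. Protein sequences were not used here.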

Additional observations from a re-analysis of the deposited data

Results flagged for a closer look

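For each partner of bortezomib, the levels of both complexes and the genes named in both MDA-MB-231 and 4T1 were compared. Of these, 10 values moved in opposite directions in every treated library relative to the vehicle mean. These differences were not tested, since the cell lines and the tumours were counted and scaled in separate tables. With bortezomib and TM the complex I level rose above vehicle by a mean of 0.42 log2 units in MDA-MB-231 and was -0.14 in 4T1, 0.56 apart. The ATP synthase level was 0.14 and -0.18, a gap of 0.32. ATP5MF (0.34 and -0.35) lay 0.70 apart, NDUFB9 (1.03 and -0.36) 1.39 apart and NDUFS1 (0.37 and -0.09) 0.46 apart. With bortezomib and AMD3100 the complex I level (0.23 and -0.19) lay 0.42 apart. ATP5MC3 (0.25 and -0.15) differed by 0.40, NDUFA13 (0.53 and -0.20) by 0.73, NDUFB9 (0.72 and -0.53) by 1.24 and NDUFS1 (0.30 and -0.15) by 0.46. With TM the values that did not move so were ATP5F1A, ATP5F1B, ATP5MC1, ATP5MC2, ATP5MC3, ATP5ME, NDUFA13 and NDUFV1. With AMD3100 they were the ATP synthase level, ATP5F1A, ATP5F1B, ATP5MC1, ATP5MC2, ATP5ME and NDUFV1. How often other genes moved in opposite directions was not examined. No 4T1 change passed its own test. In MDA-MB-231 scaling by library totals gives ATP5MF with TM, NDUFS1 with either partner and ATP5MC3 with AMD3100 the opposite sign. It also brings the median change over complex I there to 0.07 with TM and -0.12 with AMD3100, and over ATP synthase to -0.28 with TM.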

How the results depend on the processing

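No low-count filter, DESeq2, median-of-ratios scaling, removal of mitochondrially encoded genes (not run in 4T1), the compared groups alone, the replicate block and library totals were tried; where a result moved, the cause was not tested. Correlations between libraries of the same replicate number were -0.04 to 0.04 in HCC1937, -0.32 to 0.29 in MDA-MB-231 and -0.47 to 0.60 in 4T1. They lay within those of different numbers (-0.05 to 0.05, -0.35 to 0.31 and -0.63 to 0.66). No pairing by number was seen, though 3 libraries a group cannot exclude it. With the replicate block, AMD3100 against TM in HCC1937 called 1 complex I and 0 ATP synthase genes, TM against vehicle 1 complex I gene, and bortezomib with TM 4 ATP synthase genes, against 2, 1, 2 and 7. AMD3100 against TM in HCC1937 also gave 1 complex I gene with the compared groups alone, median-of-ratios scaling, mitochondrially encoded genes removed or no low-count filter, and for ATP synthase 4 genes with DESeq2 and 0 with the compared groups alone, library totals or no filter. TM against vehicle there gave 4 complex I genes with DESeq2, and 15 complex I and 11 ATP synthase genes with the groups alone. Library totals left 13 complex I genes for bortezomib with TM in MDA-MB-231 (6 higher, 7 lower). Leaving out 1 library at a time, AMD3100 against TM ranged from 0 to 10 ATP synthase and 1 to 16 complex I genes. AMD3100 against vehicle ranged from 0 to 1 and 0 to 5, and TM against vehicle from 1 to 11 and 1 to 16. Each of these upper ends came without AMD3100 replicate 1. In that fit 20.3% of all genes rose and 22.4% fell for TM against vehicle, where the main fit had 2.96% and 4.11%. The shares were 19.7% and 18.9% for AMD3100 against TM, and 4.34% and 3.35% for AMD3100 against vehicle. Bortezomib with TM in MDA-MB-231 ranged from 4 to 6 ATP synthase genes. For the other fits, shares over all genes are not given in this section, so those counts alone are no result about the members.

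Some log2 changes near 0 changed sign. Library totals gave ATP5MC2 0.0095 for bortezomib with TM in 4T1, ATP5ME -0.020 for AMD3100 against TM and NDUFS1 -0.010 for AMD3100 against vehicle in HCC1937, and in MDA-MB-231 ATP5MC3 -0.11 and NDUFS1 -0.079 with AMD3100, and ATP5MF -0.077 and NDUFS1 -0.070 with TM. ATP5MC2 there was 0.028 by DESeq2 and median-of-ratios scaling. NDUFV1 for TM against vehicle in HCC1937 was 0.013 by DESeq2 and median-of-ratios scaling, 0.041 by library totals, 0.022 without mitochondrially encoded genes and 0.040 without the filter. With 1 library left out, signs turned within these ranges. In 4T1, AMD3100 against TM, ATP5F1B ran from -0.13 to 0.068, ATP5ME from -0.11 to 0.21, ATP5MC2 from -0.19 to 0.028 and NDUFV1 from -0.068 to 0.10. Against vehicle in 4T1, AMD3100 gave ATP5F1A -0.24 to 0.0075 and NDUFV1 -0.13 to 0.0066, and TM gave ATP5MC2 -0.12 to 0.090, NDUFV1 -0.17 to 0.0030 and NDUFA13 -0.11 to 0.057. In HCC1937, AMD3100 against TM, ATP5ME ran from -0.15 to 0.23, ATP5MC2 from -0.093 to 0.36, ATP5MC3 from -0.18 to 0.096, NDUFV1 from -0.34 to 0.19 and NDUFB9 from -0.14 to 0.12. AMD3100 against vehicle gave ATP5F1A -0.012 to 0.14, ATP5MC1 -0.31 to 0.11, ATP5MC2 -0.33 to 0.13, ATP5MC3 -0.26 to 0.016, NDUFS6 -0.44 to 0.16, NDUFS5 -0.16 to 0.015, NDUFV1 -0.36 to 0.18, NDUFS1 -0.083 to 0.096 and NDUFB9 -0.25 to 0.014. NDUFV1 ran from -0.048 to 0.023 with TM in HCC1937, and ATP5MC2 from -0.15 to 0.12 with bortezomib and TM in MDA-MB-231. Over all alternatives, 191 of the counts were unchanged or stayed within 1.5 times and 39 did not. Counts of 0 that stayed at 0, as in 4T1, are among the 191, so the tally does not show how stable the other counts were. Of the changes of named genes 1469 kept direction and side of the threshold, 80 lost and 27 gained a call, and 49 changed sign.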

Other observations

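In AMD3100 replicate 1 of HCC1937, the log2 ratio of each member to the mean of replicates 2 and 3 ran from -2.27 to 2.29, with a median of -0.55, and was below 0 for 37 of 51 members. Over the 51 members this ratio had a Spearman correlation of -0.45 with the GC content of the transcript, given as a description, since all points share the same libraries. Members at the low end included NDUFV1 and NDUFS6, whereas ATP5F1A, NDUFS1 and NDUFA13 were higher in that library than in the other 2.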
